A study of Mus musculus with 8 samples.

Results

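The cytosolic ribosomal proteins are the protein parts of the machine that translates nuclear mRNAs. Here they are the genes of the expression table whose symbol starts with Rpl or Rps and a number, together with Rplp0, Rplp1, Rplp2 and Rpsa, without pseudogenes named -ps and without the S6 kinases. This rule found 91 of the 46983 genes, 53 named for the large and 38 for the small subunit, and it used no measured value. The large subunit joins amino acids and carries the tunnel through which the new chain leaves, and the small subunit holds the mRNA and decodes it. Most of these genes are expressed in every cell at a high level and need to be made in balance, since each ribosome takes 1 copy of almost every protein. Their mRNAs typically begin with a C followed by a run of pyrimidines (the TOP element), through which mTOR signalling controls their translation.

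Hippocampal RNA of 2-month-old C57BL/6 mice was measured by RNA-Seq in 4 XBP1s-TG and 4 Control samples. XBP1s-TG mice carried TRE-XBP1s and Camk2a-tTA, so the spliced, active form of the stress transcription factor XBP1 was made in forebrain excitatory neurons once doxycycline (Dox) was withdrawn, and tissue was taken 7 days after withdrawal. Control mice are labelled only as Control, without their alleles. The transgene is driven in one class of neurons while the RNA came from whole hippocampus, and in such bulk samples fewer cells of a type and less RNA per cell cannot be told apart. Values are TPM, read counts corrected for gene length and scaled so that each library sums to the same total. Libraries are named S1 to S4 (XBP1s-TG) and S5 to S8 (Control), and values below are given in that order.

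The libraries held at least 34821797 to 52059316 reads assigned to genes in Control and 35202609 to 41765047 in XBP1s-TG. Xbp1 itself stood at 786, 549, 1094 and 729 TPM in XBP1s-TG and at 70.4, 68.9, 71.9 and 69.7 TPM in Control. All 16 choroid plexus markers were in the table and 15 were tested, none of which passed (limma, 4 lower at an unadjusted p under 0.05, and 8 lower by voom), and their summed level was 257 and 409 TPM in S1 and S3, 6147 and 10885 TPM in S2 and S4, and 4908 to 10651 TPM in Control. Mitochondrially encoded RNA took 15.5 to 18.3% of XBP1s-TG libraries and 20.1 to 22.7% of Control libraries. Of 10 microglial markers tested 9 were lower (1 without normalization beyond TPM), with a summed level of 601 to 706 TPM against 693 to 730 TPM. Of 18 markers of dentate granule and pyramidal neurons 10 were lower and 3 higher, with summed levels that overlapped, 4177 to 4624 TPM against 4227 to 4798 TPM. Of 9 markers of the hypothalamus and limbic neighbours tested, 4 were higher and 0 lower (median log2 difference 0.86), with a summed level of 746 to 1251 TPM against 628 to 785 TPM. Without S1 and S3 only 4 of them were tested and 1 was higher, with a median of 0.14. Of 14 astrocyte markers 4 were higher and 2 lower, of 14 oligodendrocyte markers 1 was lower, and of 8 endothelial markers 1 was higher and 2 were lower. Over all genes tested, 24.4% were higher and 29.4% lower. None of the markers in these lists was at 0 in all libraries. Their part in the results below was not tested.

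Ribosomal protein mRNAs did not move as 1 block in XBP1s-TG hippocampus. Of the 85 members that passed the expression filter (at least 1 library above 14 TPM), 15 were higher, 17 were lower and 53 did not pass an adjusted p under 0.05 (limma across all 9270 genes tested, Benjamini-Hochberg adjustment). Over all genes tested, 24.4% were higher and 29.4% lower, 53.8% in all, beside 37.6% of members. The median size of the log2 difference, up or down, was 0.11 for members and 0.18 for all genes, while the median SE was 0.05 and 0.06. Of the members, 61 of 85 lay within 0.2 of no change on the log2 scale (71.8%), against 54.9% of all genes. Only 1 member also passed the fold threshold of 1.5, Rpl13, which was lower. Over all genes 8.36% passed both thresholds, 5.61% higher and 2.75% lower.

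Both subunits held members that rose and members that fell. Of 50 large subunit members tested, 7 were higher and 11 lower (14% and 22%). Of 35 small subunit members 8 were higher and 6 lower (22.9% and 17.1%). Each share lay below that of all genes tested, 24.4% higher and 29.4% lower. The median log2 difference was -0.02 for each, beside -0.04 for all genes tested. The range ran from -0.73 (Rpl13) to 0.45 (Rpl36al) in the large subunit, and the lowest value in the small subunit was -0.36 (Rps15a).

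**Figure D1:**
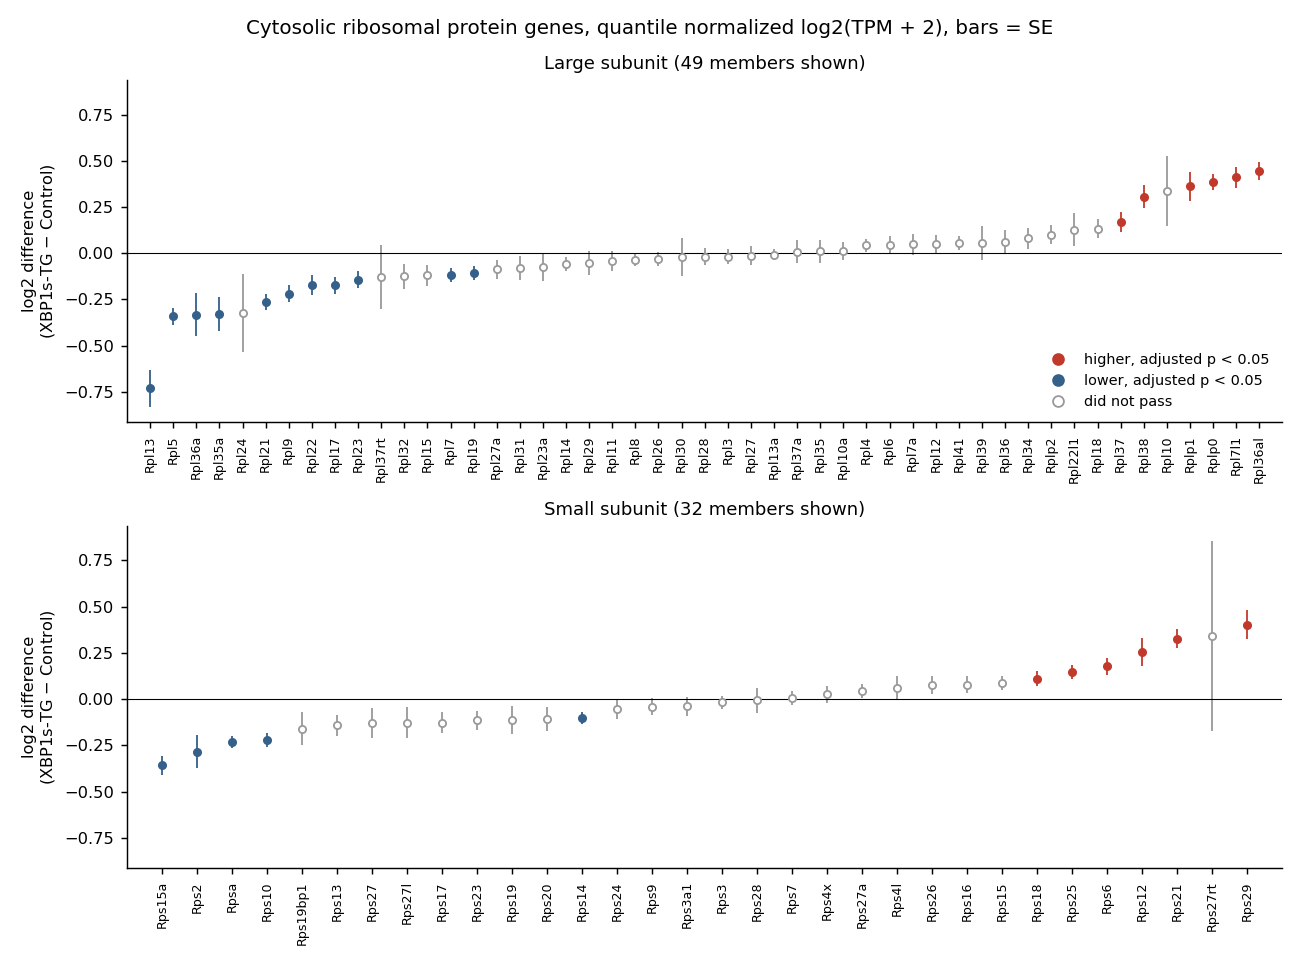
Log2 difference (XBP1s-TG minus Control, quantile normalized log2(TPM + 2)) of 49 large and 32 small subunit members, ordered by value, with bars of 1 SE. Filled points passed an adjusted p under 0.05 (red higher, blue lower) and open points did not. In both subunits the points spread on both sides of 0, and most lie within 0.2.

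Summed over all members, ribosomal protein mRNA took 3.16, 2.89, 3.18 and 3.01% of the TPM in XBP1s-TG and 2.62, 2.86, 2.83 and 2.94% in Control. The means were 3.06% ± 0.14 (SD, n = 4) and 2.81% ± 0.13 (SD, n = 4), and the groups overlapped, since S2 lay below S8. S1 and S3 had the highest shares, and these are the libraries with the least choroid plexus RNA and, of the XBP1s-TG libraries, the most Xbp1. Without S1 and S3 the difference between the groups fell from 0.247 to 0.138 percentage points. With mitochondrially encoded and choroid plexus genes removed and the rest rescaled, it was 0.104 percentage points.

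The sums of the subunits moved together from library to library. Large subunit members summed to 17561, 16076, 17772 and 16753 TPM in XBP1s-TG and 14636, 15979, 15761 and 16393 TPM in Control. Small subunit members summed to 14048, 12853, 14017 and 13341 TPM against 11602, 12620, 12514 and 13020 TPM. The log2 ratio of large over small was 0.329 ± 0.009 (SD, n = 4) in XBP1s-TG and 0.335 ± 0.004 (SD, n = 4) in Control, with S3 the highest and S1 the lowest of all libraries, so the groups overlapped.

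**Figure D2:**
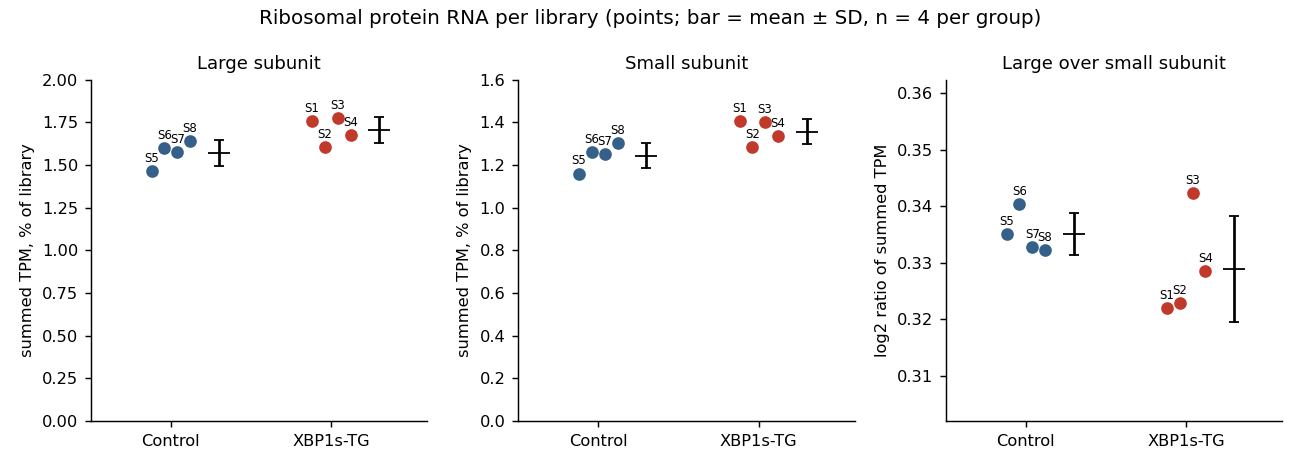
Summed TPM of the large and of the small subunit members as a percent of the library, and the log2 ratio of the sums, per library, with mean ± SD (n = 4 per group). The ratio axis does not start at 0. XBP1s-TG libraries reach higher sums (up to 1.78% and 1.40%), while the ratios of the groups overlap.

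Directions of small differences depended on how libraries were scaled. Without normalization beyond TPM the median of all genes rose by 0.10 on the log2 scale relative to the quantile normalized values, and 22 members were higher and 8 lower (34.1% and 14.4% of all genes). With libraries centred on their medians, 7 were higher and 19 lower (22.3% and 31.9% of all genes). A fit of the whole reads recovered from the TPM values (voom) gave 11 higher and 15 lower (23.7% and 29.5% of all genes). A member that keeps its direction and its call under all 3 of these scalings depends less on the choice of scaling. There were 7 such members among those higher, Rpl36al, Rplp0, Rpl7l1, Rps21 and Rps29 among them, and 8 among those lower, which included Rpl13, Rpl5, Rpsa, Rps15a, Rpl21, Rps10 and Rpl35a. Of these, 6 higher and 6 lower kept the call under all 21 alternatives. Rpl13 and Rpl35a did not. The alternatives, the 3 scalings among them, refit the same libraries or subsets of them and are no independent support. Adding near-identical genes added nothing to Rpl36al, Rpl7l1, Rps21, Rps29, Rpl5, Rpsa, Rps15a, Rpl21 or Rps10, which have none. The share of all called genes that kept their call was not computed. Whether members keep theirs more or less often than other genes is therefore not known. Without S1 and S3, 7 members were higher and 11 lower (17.1% and 18.6% of all genes).

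**Figure D3:**
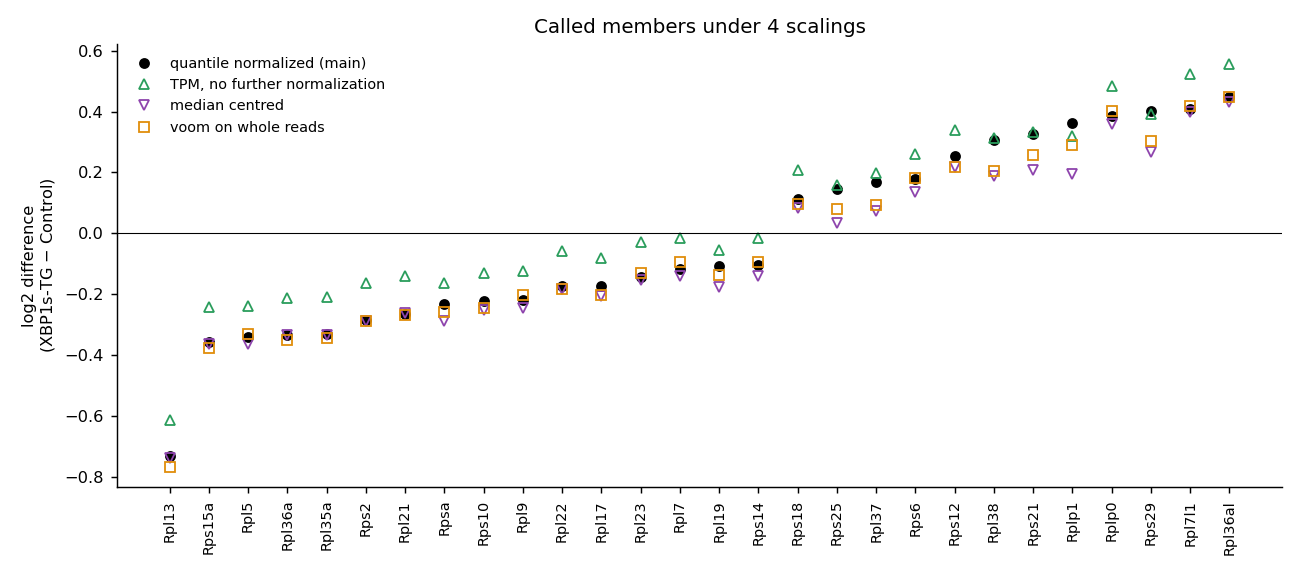
Log2 difference (XBP1s-TG minus Control) of 28 of the 32 members that passed an adjusted p under 0.05, under 4 scalings, ordered by the quantile normalized value. TPM without further normalization (green) lies above the other scalings for the lower members, while the members at both ends keep their side of 0 under each scaling.

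The members that rose most included Rpl36al, the autosomal paralogue of X-linked Rpl36a, whose protein sits near the exit site for tRNA. Rpl36al (chromosome 12) stood at 149, 135, 157 and 142 TPM in XBP1s-TG and 94.0, 102, 96.7 and 100 TPM in Control. All 4 XBP1s-TG libraries lay above all Control libraries (log2 difference 0.45 ± 0.05 SE, limma adjusted p = 8.4e-05). Rpl7l1 (chromosome 17), a paralogue of Rpl7, was at 73.0, 61.3, 76.3 and 69.2 TPM against 48.0, 50.3, 47.1 and 46.3 TPM. Its groups did not overlap either (0.41 ± 0.06 SE, limma adjusted p = 0.00027), and S3, the library with the most Xbp1, was the highest for both paralogues. Rpl36a itself was at 36.0, 23.9, 32.4 and 32.4 TPM against 34.1, 37.5, 32.8 and 40.2 TPM, so the groups overlapped. Its fitted difference was -0.33 ± 0.12 SE (limma adjusted p = 0.037), a call lost without S2, S3, S4, S6 or S8 in turn and when its near-identical genes were added (adjusted p = 0.144). The call was also lost without the filter, without normalization beyond TPM and by the unequal-variance test. Rpl7 was at 199 TPM against 201 TPM on average, with a fitted difference of -0.12 (limma adjusted p = 0.025). This call was lost without S1, without S8, without S1 and S3, by voom (adjusted p = 0.0912) and without normalization beyond TPM (-0.02, adjusted p = 0.757).

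In the small subunit, Rps29, a small zinc-binding protein and among the most abundant members, was at 1436, 1267, 1403 and 1214 TPM against 845, 1060, 1045 and 1119 TPM. Its lowest XBP1s-TG library (S4) stood above its highest Control library (S8) (0.40 ± 0.08 SE, limma adjusted p = 0.0021), and S5 was the lowest. Rps21 was at 839, 746, 855 and 793 TPM against 585, 662, 636 and 686 TPM, again without overlap (0.33 ± 0.05 SE, limma adjusted p = 0.00068). Groups without overlap on the normalized scale were found for 12 higher and 14 lower members of 85, beside 23.3% and 26.3% of all genes tested (49.6% in all).

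The P stalk is the flexible arm of the large subunit that recruits the elongation factors. Of the 4 members of the stalk and its base, Rplp0 and Rplp1 rose, beside 24.4% of all genes tested, and Rplp2 and Rpl12 did not pass. Without normalization beyond TPM all 4 were higher (34.1% of all genes), with median centring 1 (22.3%) and without S1 and S3 1 (17.1%). Only Rplp0 kept its call under all 21 alternatives. Rplp0, the scaffold that holds the stalk, was at 462, 447, 524 and 468 TPM in XBP1s-TG and 324, 349, 339 and 343 TPM in Control (0.38 ± 0.04 SE, limma adjusted p = 9.7e-05). Rplp1, an acidic stalk protein and the most abundant member, was at 3155, 2833, 3363 and 3004 TPM against 2148, 2534, 2499 and 2737 TPM. Both genes separated the groups, but the difference of Rplp1 (0.36 ± 0.08 SE, limma adjusted p = 0.0035) did not pass with median centring or without S1 and S3. Rplp1 made up 9.79 to 10.6% of all ribosomal protein TPM in XBP1s-TG and 8.19 to 9.30% in Control. Rplp2, its partner in the stalk, was at 0.10 ± 0.05 SE (adjusted p = 0.126) and Rpl12, at the base, at 0.05 ± 0.05 SE (adjusted p = 0.446).

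**Figure D4:**
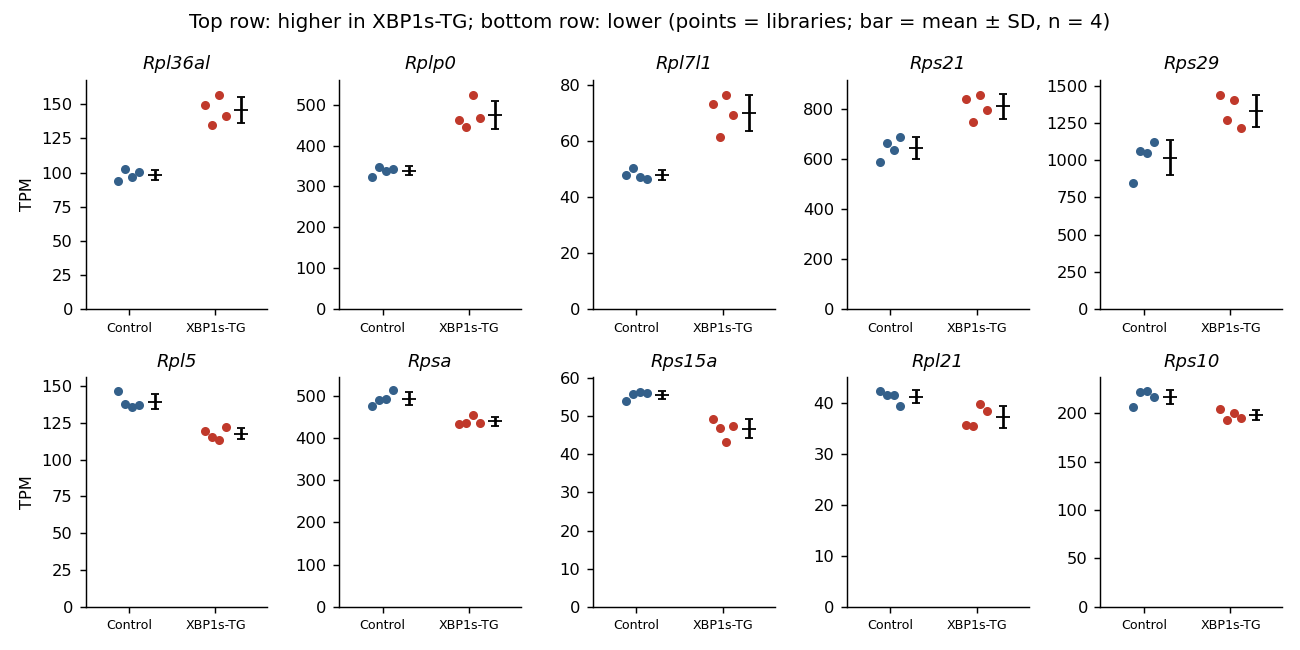
TPM per library of 10 members whose call held under all 21 alternatives, with mean ± SD (n = 4 per group) and axes that start at 0. In the top row (Rpl36al, Rplp0, Rpl7l1, Rps21 and Rps29) all XBP1s-TG points lie above the Control points. In the bottom row the means are lower in XBP1s-TG, by less than in the top row relative to their level, and Rpl21 overlaps on the TPM scale.

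Other higher members changed less. Rpl38, which in mouse embryos is needed for translation of a subset of Hox mRNAs, was at 894, 794, 888 and 805 TPM against 601, 711, 678 and 735 TPM (0.31 ± 0.06 SE, limma adjusted p = 0.003), and did not pass with median centring. Rps6, the substrate of the S6 kinases, was at 393, 346, 402 and 383 TPM against 311, 308, 325 and 326 TPM. Its groups were apart (0.18 ± 0.05 SE, limma adjusted p = 0.0089), with the call lost under median centring and without S1 and S3. Rps12, Rpl37, Rps25 and Rps18 were also higher, with log2 differences of 0.11 to 0.25. None of these passed with median centring or without S1 and S3.

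Among the members that fell, Rpl5 joins Rpl11 and the 5S rRNA in a particle that restrains the p53 inhibitor Mdm2 when ribosome assembly fails. Rpl5 (chromosome 5) was at 119, 115, 114 and 122 TPM in XBP1s-TG and at 147, 138, 136 and 137 TPM in Control. The groups did not overlap (log2 difference -0.34 ± 0.05 SE, limma adjusted p = 0.0003), and S5 stood highest. Rpl11 was at 127, 131, 132 and 127 TPM against 117, 128, 117 and 132 TPM, and its difference of -0.04 ± 0.06 SE did not pass (adjusted p = 0.54). Genes that overlap Rpl5 on the opposite strand include Fam69a, at 29.2 to 35.8 TPM over the 8 libraries. The library kit marks strand, but whether counting used it is not given in the sources used here.

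Small subunit members that fell in every alternative included Rps15a, Rpsa and Rps10. Rps15a was at 49.2, 46.8, 43.3 and 47.5 TPM in XBP1s-TG and at 53.9, 55.8, 56.3 and 56.1 TPM in Control (-0.36 ± 0.05 SE, limma adjusted p = 0.00039). Rpsa, also known as the laminin receptor precursor, was at 434, 436, 456 and 436 TPM against 476, 490, 494 and 514 TPM (-0.23 ± 0.03 SE, limma adjusted p = 0.00034). For both genes each XBP1s-TG library lay below each Control library. Rps10 was at 204, 194, 200 and 195 TPM against 207, 222, 223 and 217 TPM, with the groups close to each other but apart (-0.22 ± 0.04 SE, limma adjusted p = 0.00097). In the large subunit, Rpl21 fell as well, at 35.5, 35.3, 39.7 and 38.3 TPM against 42.3, 41.5, 41.6 and 39.4 TPM (-0.27 ± 0.04 SE, limma adjusted p = 0.0007), and its groups overlapped in TPM and not after normalization.

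By place in the ribosome, the rim of the nascent chain exit tunnel had 3 of 8 members lower (37.5%) and none higher. The shares over all genes tested were 29.4% lower and 24.4% higher. Without S1 and S3, 1 of 8 was lower, beside 18.6% of all genes. The members lower in the main fit were Rpl17 (-0.17 ± 0.05 SE, limma adjusted p = 0.011), Rpl22 (-0.17 ± 0.05 SE, limma adjusted p = 0.021) and Rpl19 (-0.11 ± 0.04 SE, limma adjusted p = 0.04). All of them lost the call without normalization beyond TPM. The call of Rpl22 was also lost without S3, without S6 and by the unequal-variance test, and that of Rpl19 was kept in only 9 of the 21 alternatives and lost on leaving out any library but S2. Rpl23a, Rpl26, Rpl31, Rpl35 and Rpl39 of the same rim had values of -0.08 to 0.05 and did not pass. The catalytic centre and tunnel wall (Rpl3, Rpl4, Rpl8 and Rpl10) had no call (limma, 0 at an unadjusted p under 0.05, and 0 by voom) and 1 lower with median centring, with Rpl3 at -0.02, Rpl4 at 0.04 and Rpl8 at -0.04, each with an SE of 0.03 to 0.04. Rpl10, loaded last on the large subunit, stood at 71.4, 35.8, 45.0 and 47.8 TPM against 29.9, 45.6, 32.6 and 32.5 TPM. Its difference of 0.34 ± 0.19 SE (adjusted p = 0.156) rested on wide spread, with S1 far above the other libraries of its group.

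Of 8 members along the mRNA channel and decoding site, 1 was higher and 2 were lower (12.5% and 25%), beside 24.4% and 29.4% of all genes tested. The members that fell were Rps2 and Rps14. Rps2, at the mRNA entry, was at 82.2, 76.7, 74.5 and 73.6 TPM against 72.2, 96.7, 83.8 and 94.2 TPM, so S5 lay below every XBP1s-TG library. The call on its difference of -0.28 ± 0.09 SE (limma adjusted p = 0.025) was lost without S3, S4, S6 or S8 and without S1 and S3. It was also lost without the filter, without normalization beyond TPM and by the unequal-variance test. Rps14 fell by 0.10 on the log2 scale (limma adjusted p = 0.028), a call lost under 6 alternatives. Rps3 at -0.02, Rps15 at 0.09, Rps23 at -0.11, Rps26 at 0.08 and Rps28 at -0.01 on the log2 scale did not pass. Rps27a, made as a fusion with ubiquitin, was at 311, 291, 298 and 297 TPM against 264, 266, 264 and 277 TPM. These TPM values did not overlap, while after quantile normalization its difference was 0.04 ± 0.04 SE (adjusted p = 0.35). The most abundant members after Rplp1 were Rps15, Rps29, Rpl13a and Rpl4. Of these Rpl13a (-0.01 ± 0.03 SE, adjusted p = 0.811), Rpl4 (0.04 ± 0.04 SE, adjusted p = 0.325) and Rps15 (0.09 ± 0.04 SE, adjusted p = 0.07) did not pass, and the 5 together held 24.2% of the ribosomal protein TPM.

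Of the 18 members that are mutated in Diamond-Blackfan anemia, an inherited failure of red cell production in humans, 1 was higher (Rps29) and 4 were lower (Rpl5, Rpl35a, Rps10 and Rps15a). These shares of 5.56% and 22.2% lay below the 24.4% and 29.4% of all genes tested. Rpl35a was at 36.7, 34.7, 33.3 and 37.7 TPM in XBP1s-TG and 42.8, 37.1, 38.8 and 48.0 TPM in Control. S4 lay above S6, so the TPM of the groups overlapped (-0.33 ± 0.09 SE, limma adjusted p = 0.014). The call was lost without S1 and S3, without the filter and by the unequal-variance test. Rps19, the member found mutated first in that disease, was at -0.11 ± 0.08 SE and did not pass (adjusted p = 0.237).

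Rpl13 had the largest difference of any member, and it is also one whose mRNA is copied elsewhere in the genome. Its own row was at 27.9, 26.1, 28.1 and 26.6 TPM in XBP1s-TG and 41.0, 37.2, 55.8 and 38.8 TPM in Control (-0.73 ± 0.10 SE, limma adjusted p = 0.0003). In Control, S7 stood above the other libraries. Against this, 6 genes of the table had transcripts at least 95% identical to at least 60% of the Rpl13 transcript, and these held 79.4% of the TPM summed over the 7 genes. The 6 genes summed to 153 TPM in XBP1s-TG and 118 TPM in Control on average, higher in the group where Rpl13 was lower. Their sums overlapped, since S6 (152 TPM) lay above S1 and S4 (138 TPM each). With their TPM added, the difference turned to 0.07 ± 0.09 SE (limma adjusted p = 0.535). Gm20388, which overlaps the Rpl13 locus on the same strand, was at 62.1 to 69.4 TPM in XBP1s-TG and 53.2 to 58.7 TPM in Control.

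A stretch of 30 bases is shown because a read that falls in it can belong to several of these genes. It was picked among stretches without gaps, first for the most copies that differ from Rpl13 and then for the fewest differences. How alike the copies are in it follows in part from that choice. The stretch is positions 206 to 235 of the 780-base Rpl13 transcript (GENCODE, GRCm38, chr8:123102762-123102873 on the plus strand), coding sequence across the junction of exons 2 and 3 of 6. Capitals mark bases that differ from Rpl13, and the copies read straight across the exon junction.
Rpl13: ggcgcaaggcccggcaggcgaaagcgcgtc
Gm12918: ggcgcaaggcccggcaggcgaaagcgcgtc
Gm15710: ggcgcaaggcccggcaggcgaaagcgcgtc
Rpl13-ps6: ggcgcaaggcccggcaggcgaaagcgcgtA
Gm7290: ggcgcaaggcccggcaggcgaaagTgcgtc
Gm5075: ggcgcaaggcccggcagAcgaaagcgcgtc
Rpl13-ps3: ggcAcaaggcccggcaggcgaaagcgcgtc
Over 636 aligned bases Gm12918 had 0 mismatches, Gm15710 had 1 and Rpl13-ps6 had 3. The other copies were less alike. Gm7290 had 17 mismatches over 598 bases, Gm5075 13 mismatches and 13 gaps over 634, and Rpl13-ps3 9 mismatches and 12 gaps over 636. Rpl13-ps6 was at 24.4, 61.4, 62.4 and 22.9 TPM in XBP1s-TG and 18.9, 72.1, 20.8 and 26.1 TPM in Control, so it varied by several fold within each group. Gm15710 was at 48.4, 48.5, 24.4 and 48.3 TPM against 34.0, 24.9, 21.9 and 28.5 TPM.

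Rpl24 and Rpl9 are other members of which most TPM stood in other rows. Its own row was at 22.5, 13.6, 22.6 and 32.4 TPM in XBP1s-TG and 26.3, 22.5, 24.5 and 31.0 TPM in Control (-0.32 ± 0.21 SE, adjusted p = 0.223). Gm28037, a gene model on chromosome 16 that overlaps Rpl24 on the same strand, held 398 to 452 TPM in XBP1s-TG and 368 to 442 TPM in Control. With Gm28037, Gm9385 and Gm12254 added, which held 96.2% of the sum, the difference was 0.11 ± 0.05 SE (adjusted p = 0.0949). Rpl9, of the large subunit, was at 180 TPM in XBP1s-TG and 197 TPM in Control on average, and 8 near-identical genes held 223 and 250.1 TPM, 55.6% of the sum. Its difference was -0.22 in its own row (limma adjusted p = 0.0036) and -0.23 ± 0.09 SE with those genes added (limma adjusted p = 0.043), and the call was lost without normalization beyond TPM. Of the 91 members, 42 had at least 1 such near-identical gene outside the members and 14 had over 10% of the summed TPM in them. Adding them to every member gave 14 higher and 14 lower (24.5% and 29.6% of all genes) and no call at 1.5-fold. Besides Rpl13, the calls of Rpl36a, Rps18 and Rpl19 were lost.

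**Figure D5:**
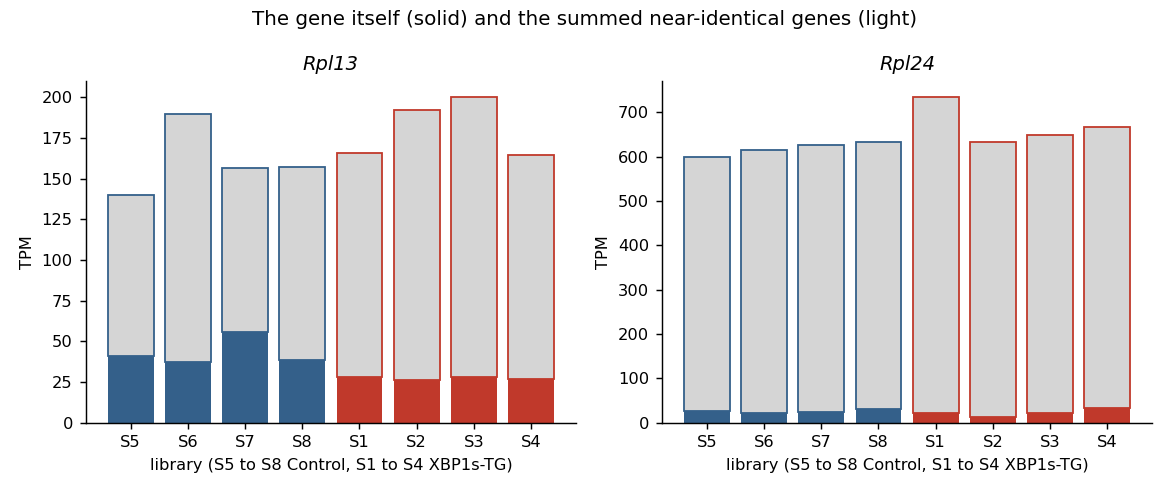
TPM per library of Rpl13 and Rpl24 (solid, red XBP1s-TG and blue Control) with the summed TPM of their near-identical genes on top (light), axes from 0. The solid part of Rpl13 is smaller in S1 to S4 while the light part is on average larger, and Rpl24 itself is a thin band under its near-identical genes.

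The other paralogues and look-alikes did not move together. Besides Rpl36al and Rpl7l1, which rose, Rpl22l1 was at 0.13 ± 0.09 SE (adjusted p = 0.243) and Rps4l at 0.06 ± 0.06 SE (adjusted p = 0.449). Rps27l, a paralogue of Rps27, was at -0.13 ± 0.08 SE (adjusted p = 0.22). Rps19bp1, which binds Rps19 and is no ribosomal protein although its symbol meets the rule, was at -0.16 ± 0.09 SE (adjusted p = 0.149). Rps27rt, near-identical to Rps27, ranged from 32.5 to 178 TPM over the 8 libraries, and its difference of 0.34 ± 0.51 SE says little. The 6 members under the filter were Rpl10l, Rpl39l, Rpl3l, Rps12l1, Rps3a2 and Rps3a3, none above 4.53 TPM in any library. Rpl3l, the striated muscle form of Rpl3, was at 0.424, 0.140, 0.250 and 0.274 TPM against 0.478, 0.355, 0.328 and 0.399 TPM (exact two-sided permutation test, p = 0.143). For Rpl39l, the testis form of Rpl39, at 0 to 0.296 TPM, p was 0.143 by the same exact test. The smallest p that 4 against 4 libraries allow is 0.0286. Rpl10l rested on at most 1 read per library.

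Genes that act with the ribosome were read from lists. Over all genes tested, 24.4% were higher and 29.4% lower, 34.1% and 14.4% without normalization beyond TPM, and 22.3% and 31.9% with median centring. Of 40 translation initiation factors tested, 8 were higher and 7 lower (20% and 17.5%, median log2 difference -0.0011). Without normalization beyond TPM 16 of these factors were higher and 0 lower. Eif6, which keeps the subunits apart until the large one is finished, was at 71.8, 59.9, 82.0 and 69.1 TPM in XBP1s-TG and 38.0, 41.8, 40.6 and 36.4 TPM in Control (0.69 ± 0.07 SE, limma adjusted p = 6.4e-05). Eif4g1, the scaffold of the cap-binding complex, rose (0.48 ± 0.04 SE, limma adjusted p = 2.9e-05), as did Eif3b (0.50 ± 0.05 SE, limma adjusted p = 7.9e-05). Of 14 elongation and termination factors 5 were higher and 2 lower (35.7% and 14.3%), with 3 higher and 4 lower under median centring. Eif5a rose (0.36 ± 0.06 SE, limma adjusted p = 0.00072) while its paralogue Eif5a2 fell (-0.44 ± 0.09 SE, limma adjusted p = 0.0026), as did Eef1e1, a scaffold of the tRNA synthetase complex (-0.37 ± 0.05 SE, limma adjusted p = 0.00024).

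Of 63 ribosome biogenesis factors tested, 17 were higher and 13 lower (27.0% and 20.6%, median 0.01), beside 24.4% and 29.4% of all genes tested. Without normalization beyond TPM, 27 of the factors were higher and 5 lower (34.1% and 14.4% of all genes). Tsr1, an assembly factor of the small subunit, was at 54.4, 44.7, 58.0 and 52.7 TPM against 28.5, 30.1, 28.3 and 27.6 TPM (0.70 ± 0.07 SE, limma adjusted p = 3.2e-05), and Aamp rose (0.66 ± 0.06 SE, limma adjusted p = 3.9e-05). Of 21 other genes with TOP mRNAs tested, 1 was higher and 7 lower (4.76% and 33.3%, median -0.11), and 2 and 2 without normalization beyond TPM. Those with the smallest p, Hnrnpa1 (-0.29 ± 0.03 SE), Nap1l1 (-0.34 ± 0.05 SE) and Eif3h (-0.19 ± 0.03 SE), fell, Eif3h not without normalization beyond TPM. Of the ribosomal proteins whose names do not meet the rule, Gnb2l1 (-0.05 ± 0.04 SE) and Fau (-0.03 ± 0.04 SE) did not pass. Of 29 genes of the mTOR pathway and regulators of these mRNAs, 7 were higher and 5 lower (24.1% and 17.2%, median 0.0048), and 10 and 3 without normalization beyond TPM. Eif4ebp2, a repressor of cap-dependent translation, and Tsc2, an inhibitor of mTOR signalling, rose by 0.33 ± 0.04 and 0.32 ± 0.04 (log2, SE), while Akt1 fell (-0.30 ± 0.04 SE).

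Mitochondrial ribosomal proteins are encoded in the nucleus and translate mitochondrial mRNAs. Of 71 tested, 10 were higher and 22 lower (14.1% and 31.0%, median -0.06), beside 24.4% and 29.4% of all genes tested. Without normalization beyond TPM, 25 of these proteins were higher and 3 lower (34.1% and 14.4% of all genes). Mrps12 stood apart from them, at 238, 210, 292 and 230 TPM in XBP1s-TG and 79.7, 92.8, 88.4 and 86.9 TPM in Control (1.34 ± 0.08 SE, limma adjusted p = 3.3e-06). No cytosolic member changed by as much. Mrps23 and Mrpl41 also rose, by 0.32 and 0.28 on the log2 scale. Of 271 ribosomal protein pseudogenes named -ps, 14 were tested and none passed (limma, 0 at an unadjusted p under 0.05, and 0 by voom).

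Start sites of the members were read in the RefSeq promoter table (GRCm38.p6), which held 67 of the 91. A TOP-like run, here a C within 5 bases of the annotated start that opens a run of at least 5 pyrimidines, was found in 30 of 67 members (44.8%) and in 21.2% of all 27025 genes of the table. It was found in 4 of 10 higher, 5 of 12 lower and 21 of 42 members that did not pass. The letters CCACG, or CGTGG on the other strand, which form the core of the motif bound by XBP1s, were in the 300 bases around the start (250 before and 50 after) of 30 of 67 members (44.8%) and 35.5% of all genes. The longer letters TGACGTGG or CCACGTCA were in 0 of 67 members and 0.714% of all genes. Windows of 30 bases, 10 before and 20 from the annotated start on, are shown for members that rose (Rps21, Rplp0, Rpl36al) and fell (Rps10, Rps15a, Rpl5) under all alternatives, with the TOP-like run in capitals.
Rps21 (chr2:180257369-180257398, plus strand): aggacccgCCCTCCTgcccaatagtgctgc
Rplp0 (chr5:115559457-115559486, plus strand): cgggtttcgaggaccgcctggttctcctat
Rpl36al (chr12:69184048-69184077, minus strand): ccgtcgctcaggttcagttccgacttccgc
Rps10 (chr17:27635225-27635254, minus strand): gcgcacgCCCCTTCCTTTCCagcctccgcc
Rps15a (chr7:118116128-118116157, minus strand): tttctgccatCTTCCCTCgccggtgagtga
Rpl5 (chr5:107900518-107900547, plus strand): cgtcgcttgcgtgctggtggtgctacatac
The run was 13 bases long in Rps10, 8 in Rps15a and 7 in Rps21. None opened within 5 bases of the annotated start of Rplp0, Rpl36al or Rpl5. The RefSeq start of Rpl5 (107900528) lies inside the gene of the expression table, which starts at 107900502. Those of Rps21, Rpl36al, Rps15a and Rps10 also differ from the gene's start, while that of Rplp0 is the same. A missing run at these starts therefore does not show that an mRNA lacks the TOP element. RefSeq gives 2 starts for Rps21, and the one with the longest run is shown. Pyrimidine runs further from the start, as in the windows of Rplp0 and Rpl36al, were not counted. Members that rose and members that fell were found with and without a TOP-like run.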

How the data were processed

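The KAPA Stranded mRNA-Seq kit was used on 500 ng of hippocampal RNA per sample. The authors trimmed reads with Trimmomatic, mapped them to GRCm38 (annotation 83) with CLC Genomics Workbench at its default settings and deposited TPM per gene. What those settings do with reads that match several genes is not given in the sources used here. Columns of the deposited table with group means, fold changes and p-values were not used. From TPM, log2(TPM + 2) was taken and quantile normalized, and genes with at least 1 library above 4 (14 TPM) were fitted with limma 3.58.1 in R 4.3.3 (lmFit, eBayes with a trend), in place of the study's unequal-variance test, with Benjamini-Hochberg adjustment over 9270 genes. Fold changes are on the log2(TPM + 2) scale, which understates low genes. The fit was tested on simulated data.

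TPM ratios gave whole reads for 29237 of 29237 genes above 0 (tolerance 0.001), as smallest whole numbers, so totals are lower bounds. The tested members held 77 to 23145 reads per library. Nothing in the labels says more on replicates than separate samples, so p-values measure the spread between these. Near-identical genes were found with blastn among GENCODE M21 transcripts.

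Members and lists were chosen with earlier results of these data known. Named genes were those called at both thresholds, the 8 with the smallest adjusted p per direction without overlap, the 5 most abundant, those of the named ribosome sites, the paralogues, and the 3 with the smallest adjusted p of each other list. Rps12, Rpl37, Rps25, Rps18, Rps12l1, Rps19, Rpl7, Rpl9, Rpl35a, Rpl36a, Rpl24, Fam69a and Gm genes were named after their values were seen, as were the motif's shortest run and the windows. Some genes are not reported here.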

Additional observations from a re-analysis of the deposited data

Results flagged for a closer look

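Of 174 groups of 4 libraries compared (members and other genes named above, their share and subunit ratio), 6 had 1 library far from the other 3 by Dixon's test, where chance gives about 1 in 20. Rpl5 was at 147 TPM in S5, with the other Control libraries at 136 to 138 TPM. Rpsa was at 456 TPM in S3, with the other XBP1s-TG libraries at 434 to 436 TPM. Eif3b was at 84.6 TPM in S7, with the other Control libraries at 91.0 to 91.7 TPM. The others were single reads of silent paralogues, Rpl10l at 0.0852 TPM in S1 and 0.0878 TPM in S7, and Rpl39l at 0.0985 TPM in S8, with the other libraries of the group at 0.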

How the results depend on the processing

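No paired analysis was possible because the columns carry no replicate numbers. The member counts, 15 higher and 17 lower, stayed within 1.5 times under other pseudocounts, filters, a floor, no trend and an unequal-variance test. Median centring gave 7 higher (3 large, 4 small). TPM without further normalization gave 8 lower (4 large) and 13 large subunit members higher, with a median of 0.063 for all members, 0.065 for the large and 0.061 for the small subunit, and voom gave 5 small subunit members higher. Without S1 and S3 there were 7 higher (4 large, 3 small) and 11 lower (7 large). Leaving out each library in turn gave 11 to 19 higher and 11 to 18 lower. For the large subunit these were 5 to 11 and 7 to 11, for the small 6 to 8 and 4 to 7. With near-identical genes added, chosen after seeing the data, the call at both thresholds fell to 0 and Rpl13 turned to 0.071 (log2). The share difference moved to 0.104 without mitochondrial and choroid plexus genes. Of 1677 comparisons for named genes, 1550 changed neither direction nor call, 93 lost and 12 gained a call, 21 uncalled values moved and 1 turned. How depth limits the calls was not tested.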
